A study of Homo sapiens with 4 samples.

Results

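The 10 genes described here encode the Argonaute proteins (*AGO1*, *AGO2*, *AGO3* and *AGO4*), the TNRC6 proteins (*TNRC6A*, *TNRC6B* and *TNRC6C*) and core factors of microRNA processing. The processing genes are *DROSHA*, *DGCR8* and *DICER1*. The 10 genes were chosen by symbol, and a probe was assigned to a gene through its RefSeq accession. All 10 were found among the 22439 genes matched on the array, with 13 of the 58201 probes: *AGO1*, *AGO3* and *TNRC6C* had 2 probes each and the other genes had 1. Expression was measured on 4 one-color Agilent arrays of cells labeled as A549, an established lung adenocarcinoma line. *miR-486-5p* was transfected for 1 array and *miR-486-3p* for 1 array, and the 2 mock arrays were of cells given the transfection reagent alone. No genetic change separated the groups. All of them received Lipofectamine RNAiMAX, and none of the 4 arrays carried an unrelated control microRNA, so an effect of a strand and an effect of any small RNA taken up by the cells cannot be told apart.

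MicroRNA genes are transcribed as long primary transcripts. In the nucleus, the Microprocessor, made of the RNase III enzyme DROSHA and its RNA-binding partner DGCR8, cuts a hairpin out of them. After export, DICER1 trims the hairpin to a duplex, and 1 strand is loaded into an Argonaute protein, which finds target mRNAs through the seed of the strand. AGO2 is the family member known for slicing a matched target. The TNRC6 (GW182) proteins are the scaffolds that link Argonaute to the deadenylases and decapping factors that shorten the life of a target. A transfected mature strand enters this pathway at the Argonaute step.

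All 13 member probes were well above background on all 4 arrays, so none of their values is a bound, and no spot on the arrays was saturated. The log2 of the scanner's signal is given relative to the 75th percentile of the array. Over all genes well above background, the mock arrays differed from each other by more than 0.5 on the log2 scale in 1.52%, and over the members the size of that difference ran from 0.024 to 0.18. Each strand had 1 array, which limits the precision of all values given here. The cell label was then set against marker genes. Of the 6 epithelial markers, *KRT7*, *KRT8*, *KRT18* and *KRT19* had a probe well above background on every array, whereas *CDH1* was not well above background on any and *EPCAM* on only part of the arrays. *CDKN2A*, whose locus is known to be deleted in A549, had a scanner signal of 7439 and 7208 on the mock arrays for 1 of its probes, 4918 with *miR-486-5p* and 1383 with *miR-486-3p*, and its second probe was also well above background on every array. *AKR1B10*, an aldo-keto reductase known to be abundant in A549, was not well above background on either mock array with any of its 2 probes, while *AKR1C1* of the same family was well above it on every array. *ALDH1A1*, the remaining marker associated with A549, was well above background on every array with 1 probe and on part of the arrays with the other. The markers thus go against the label in part, and the cells are called here the cells labeled A549. Of 6 markers of other cell types, 4 had a probe well above background on every array, and their highest signal was 72.8, for *CD14* after *miR-486-3p*.

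Of the members, *DGCR8* and *DICER1* carry microRNAs of their own. DGCR8 mRNA is known to hold hairpins that the Microprocessor itself cuts, which is a classic example of autoregulation, and these hairpins are annotated as *MIR3618* and *MIR1306*. RefSeq also places *MIR3173* inside *DICER1*. Their mature sequences are shown because the arrays measured only the host transcripts, and they are given 5′ to 3′ from RefSeq (GRCh38.p14) with the seed, bases 2 to 8, in capitals.
hsa-miR-3618 (chr22:20085797-20085818, plus strand, in DGCR8): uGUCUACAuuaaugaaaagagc
hsa-miR-1306-5p (chr22:20086072-20086093, plus strand, in DGCR8): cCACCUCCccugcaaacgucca
hsa-miR-1306-3p (chr22:20086112-20086129, plus strand, in DGCR8): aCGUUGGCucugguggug
hsa-miR-3173-5p (chr14:95137961-95137982, minus strand, in DICER1): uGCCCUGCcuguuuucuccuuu
hsa-miR-3173-3p (chr14:95137923-95137944, minus strand, in DICER1): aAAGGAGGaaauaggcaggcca
All 5 lie on the strand of their host, and their 5 seeds are distinct. These are the mature products whose host transcripts are reported next; the mature RNAs themselves were not measured.

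After *miR-486-3p* transfection, the Microprocessor genes *DROSHA* and *DGCR8* fell, while *AGO3*, *AGO4*, *TNRC6A* and *TNRC6B* rose. *AGO2* lay between the mock arrays. Of the 10 genes, 2 had a log2 difference from the mock mean below −0.5 and 5 were above 0.5. Over all 16446 genes, 27.2% were below −0.5 and 30.4% above 0.5. Scaling each array to its median instead moved the median of all genes by −0.37, with 41.7% below −0.5 and 17.8% above 0.5. limma, with Benjamini-Hochberg adjustment over 33498 probes at 0.05, called 3 of the 13 member probes lower and 6 higher, against 24.2% and 28.1% of all probes. The *miR-486-3p* value lay below both mock arrays for 4 member probes, above both for 8 and between them for 1 (all probes: 40.9% below and 52.0% above). The median log2 difference was 0.30 over the members and 0.058 over all genes. In limma the spread is that between the mock arrays, since neither strand has a second array.

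*DROSHA*, the nuclease that opens the pathway, had log2 signals of 4.28 and 4.24 on the mock arrays, 3.89 with *miR-486-5p* and 2.91 with *miR-486-3p*. The *miR-486-3p* array was far below the others, and the *miR-486-5p* array lay between it and the mock arrays. The *miR-486-3p* signal was 39.2% of the mock signal, a log2 difference of −1.35 (standard error 0.0898, limma adjusted p = 0.00885). *DGCR8*, the partner that recognizes the hairpin, had 0.48 and 0.43 on the mock arrays, 0.44 with *miR-486-5p* and −0.63 with *miR-486-3p*. Here the *miR-486-5p* array lay between the mock arrays and only the *miR-486-3p* array stood apart. The fall of *DGCR8* was −1.08 (standard error 0.0912, limma adjusted p = 0.0110), which is 47.3% of the mock signal, and it was −0.72 after normexp background correction. *DICER1*, which cuts the hairpin in the cytoplasm, had 3.34 and 3.18 on the mock arrays, 3.44 with *miR-486-5p* and 2.79 with *miR-486-3p*. The *miR-486-3p* value was below both mock arrays. Its difference of −0.47 did not pass the limma threshold (standard error 0.118, adjusted p = 0.0594). Without mock replicate 2 the difference was −0.55, without mock replicate 1 it was −0.40, and with quantile normalization it was −0.30. The call depended on the processing: it passed in 4 of 8 limma fits, whose adjusted p ranged from 0.0027 to 0.123, and the difference was −0.85 when each array was scaled to its median.

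Among the Argonaute genes, *AGO3* and *AGO4* rose after *miR-486-3p*, *AGO2* lay between the mock arrays, and the probes of *AGO1* disagreed. *AGO4*, *AGO1* and *AGO3* lie in this order on chromosome 1, with a pseudogene between *AGO1* and *AGO3*. *AGO4* had log2 signals of −1.56 and −1.65 on the mock arrays, −0.83 with *miR-486-5p* and −0.093 with *miR-486-3p*, so both transfected arrays were above both mock arrays. Its difference after *miR-486-3p* was 1.51, a 2.86-fold rise (standard error 0.101, limma adjusted p = 0.00885), and it was 0.85 after normexp correction. For *AGO3*, 1 probe had 1.73 and 1.59 on the mock arrays, 2.43 with *miR-486-5p* and 3.23 with *miR-486-3p*. The other *AGO3* probe had 2.04 and 1.94 on the mock arrays, 2.18 with *miR-486-5p* and 2.42 with *miR-486-3p*. Both probes were higher on the transfected arrays than on either mock array. Their differences after *miR-486-3p* were 1.57 (limma adjusted p = 0.00935, standard error 0.113) and 0.43 (adjusted p = 0.0536, standard error 0.101), so the size of the rise depends on the probe, and the second missed the threshold. The second probe was called in 5 of 8 fits (adjusted p from 0.0032 to 0.773), and with median scaling it was at 0.053.

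*AGO2*, the slicing Argonaute, had log2 signals of 3.17 and 3.19 on the mock arrays, 3.33 with *miR-486-5p* and 3.18 with *miR-486-3p*. The *miR-486-3p* value lay between the mock arrays. Its probe was spotted 10 times per array, and the SD over the spots of an array was 0.023 to 0.046 on the log2 scale. Its differences were 0.15 with *miR-486-5p* and −0.00 with *miR-486-3p* (limma adjusted p = 0.312 and 0.999), and none of 8 limma fits called it for either strand. The sign after *miR-486-3p* depended on the scaling, with −0.37 under median scaling and 0.17 under quantile normalization. *AGO1* was measured by 2 probes listed under the same transcript. For 1 probe the log2 signals were 4.07 and 3.99 on the mock arrays, 3.70 with *miR-486-5p* and 4.69 with *miR-486-3p*. For the other they were −0.11 and −0.16 on the mock arrays, −0.57 with *miR-486-5p* and −1.55 with *miR-486-3p*. After *miR-486-5p* both probes were below both mock arrays, but after *miR-486-3p* 1 was above and 1 below. limma called each of them, the first at 0.65 (standard error 0.0961, adjusted p = 0.0234) and the second at −1.42 (standard error 0.0906, adjusted p = 0.00866). The mean of −0.38 for the gene therefore describes neither probe, and no direction is given for *AGO1* after *miR-486-3p*. With median scaling the higher probe was at 0.28 and lost its call (adjusted p = 0.162; range over the 8 fits 0.00034 to 0.162).

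The TNRC6 scaffold genes had values above both mock arrays on each of their probes after *miR-486-3p*, although 1 *TNRC6C* probe was at −0.016 under median scaling. *TNRC6A* (GW182) had log2 signals of 1.03 and 1.08 on the mock arrays, 1.02 with *miR-486-5p* and 2.57 with *miR-486-3p*. Only the *miR-486-3p* array stood far from the mock arrays. This 2.85-fold rise, of 1.51 on the log2 scale (standard error 0.091, limma adjusted p = 0.0084), was the largest of the family. *TNRC6B* had 0.77 and 0.95 on the mock arrays, 1.36 with *miR-486-5p* and 1.66 with *miR-486-3p*. Both transfected arrays were above both mock arrays, which differed more from each other for *TNRC6B* than for any other member. Its difference after *miR-486-3p* was 0.80 (standard error 0.13, limma adjusted p = 0.0279), and it was 0.42 under median scaling, where the call was lost (adjusted p = 0.065; range over the 8 fits 0.0011 to 0.065). *TNRC6C* had 2 probes. The first had 2.49 and 2.48 on the mock arrays, 2.85 with *miR-486-5p* and 2.84 with *miR-486-3p*. The second had −3.58 and −3.66 on the mock arrays, −3.81 with *miR-486-5p* and −2.76 with *miR-486-3p*. On the first probe both strands were above the mock arrays, and on the second only *miR-486-3p* was. limma called the second probe (0.86, standard error 0.0953, adjusted p = 0.0154) and not the first (0.36, standard error 0.0873, adjusted p = 0.0566), which was called in 5 of 8 fits (adjusted p from 0.0038 to 0.926). The called probe was dim, with a scanner signal of 9.51 and 9.05 on the mock arrays, and its difference was 0.30 after normexp correction.

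**Figure D1:**
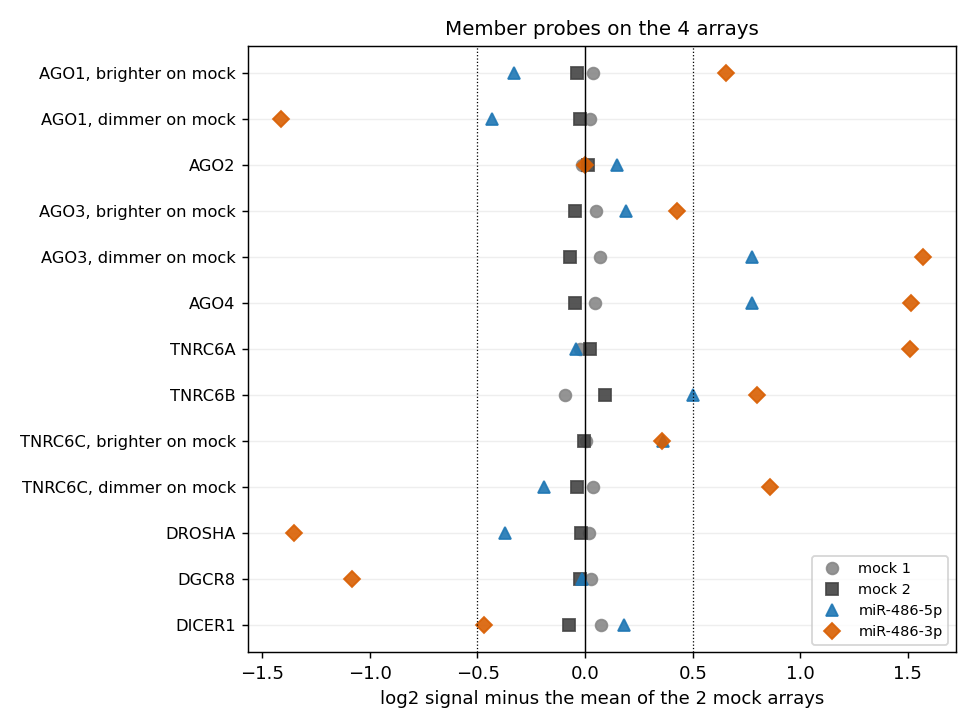
Log2 signal of each member probe on the 4 arrays, minus the mean of the 2 mock arrays (x axis; dotted lines at −0.5 and 0.5). Genes are ordered by role, and where a gene has 2 probes they are named by their signal on the mock arrays. The *miR-486-3p* array lies far left of the mock arrays for *DROSHA* (−1.35), *DGCR8* (−1.08) and 1 *AGO1* probe (−1.42), and far right for *AGO4* (1.51), *TNRC6A* (1.51) and 1 *AGO3* probe (1.57).

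After *miR-486-5p* transfection, the member genes stayed closer to the mock arrays. *AGO4* (0.77) and *TNRC6B* (0.5025) were the 2 genes above 0.5, and no gene was below −0.5. Over all 16024 genes, 13.8% were above 0.5 and 15.9% below −0.5. limma called 0 of the 13 member probes, against 4.49% of all probes called lower and 3.07% higher. With an intensity trend in the spread it called 3 member probes lower and 4 higher after adjustment, against 17.3% of all probes in each direction. The methods' t-test, also after adjustment, called 0. The largest difference was that of 1 *AGO3* probe and of *AGO4*, each at 0.77 to 0.78 (limma adjusted p = 0.0575 and 0.0539), while the other *AGO3* probe was at 0.19. The value of *TNRC6B* rested on the choice of mock array: against mock replicate 2 alone it was 0.41 and against mock replicate 1 alone 0.59. *AGO3* was at 0.48 as the mean of its probes, and at 0.54 without mock replicate 1. *AGO1* was at −0.38 as the mean of its probes and *DROSHA* at −0.37, and the remaining members lay between −0.041 and 0.18. A value of 0.44 remained for *AGO4* after normexp correction. The *miR-486-5p* value lay above both mock arrays for 7 probes, below both for 5 and between them for 1 (all probes: 48.5% above and 37.8% below).

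The strands were then compared directly, as a contrast in the same fit. limma called 4 of the 13 member probes lower and 5 higher after *miR-486-3p* than after *miR-486-5p*, against 21.4% and 22.0% of all probes. *DROSHA* was lower by a log2 difference of −0.98 (adjusted p = 0.0184), *DGCR8* by −1.07 (adjusted p = 0.0171) and *DICER1* by −0.65 (standard error 0.136, adjusted p = 0.0486). So the processing genes all differed between the strands, although *DICER1* lost the call in 3 of 8 fits (adjusted p from 0.0022 to 0.105). *TNRC6A* was higher after *miR-486-3p* than after *miR-486-5p* by 1.55 (adjusted p = 0.0125), the largest strand difference among the members. *AGO4* was higher by 0.74 (adjusted p = 0.0312) and 1 *AGO3* probe by 0.80 (adjusted p = 0.0331), and both calls were lost in 2 of 8 fits, with median scaling (0.44 and 0.50, adjusted p = 0.0964 and 0.0848) and with no filter on dim probes (adjusted p = 0.0645 and 0.0778). For *TNRC6B* the strands differed by 0.30 (standard error 0.15, adjusted p = 0.213) and for *AGO2* by −0.15 (standard error 0.102, adjusted p = 0.314), which did not pass. The 2 probes of *AGO1* were called in opposite directions, at 0.98 and −0.98. Of the *TNRC6C* probes, 1 was called (1.05, adjusted p = 0.0182) and 1 was not (−0.0059).

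By the Euclidean distance over the 2 differences from mock, which share the mock arrays, *DROSHA* and *DGCR8* were nearest to each other among the members (0.45 on the log2 scale). With *AGO3* taken as the mean of its 2 probes, *AGO3* and *TNRC6B* also formed a nearest pair (0.20), as did *AGO2* and *DICER1* (0.47). *AGO4* and *TNRC6A* were nearest to this mean of *AGO3*. The pairing of *AGO3* with *TNRC6B* depended on the averaging, since the *AGO3* probes differed in size. Listed with the 5p strand first, the brightest *AGO3* probe had differences of 0.78 and 1.57. These were closer to those of *AGO4* (0.77 and 1.51) than to those of *TNRC6B* (0.50 and 0.80).

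**Figure D2:**
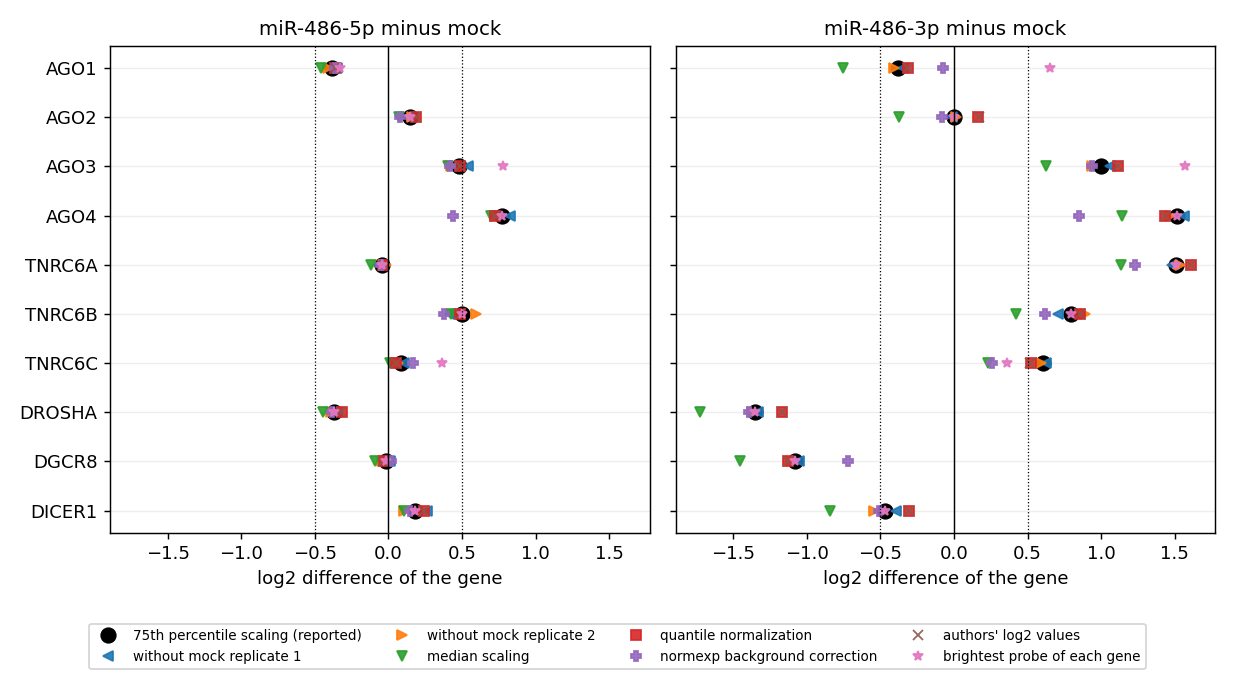
Log2 difference of each member gene from the mock arrays for *miR-486-5p* (left) and *miR-486-3p* (right) under the reported setting (black) and 7 alternatives (dotted lines at −0.5 and 0.5). After *miR-486-3p*, *DROSHA*, *DGCR8*, *AGO3*, *AGO4* and *TNRC6A* stay beyond the dotted lines in every setting drawn, *AGO2* falls on both sides of 0, and *AGO1* turns from −0.38 to 0.65 when its brightest probe stands for it.

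The other genes of the pathway were taken from lists written from general knowledge. Of their 68 genes, 66 had a probe and 63 a probe in use. After *miR-486-3p*, 15 were below −0.5 and 21 above 0.5, with a median of 0.12, and limma called 29 of their 102 probes lower and 37 higher. Over all features the shares were 27.2% and 30.4% of genes and 24.2% and 28.1% of probes. Median scaling gave 24 list genes below −0.5 and 9 above 0.5, against 41.7% and 17.8% of all genes. After *miR-486-5p*, 9 genes were below −0.5 and 4 above 0.5 (all genes: 15.9% and 13.8%). For that strand limma called 3 of the 102 probes, all lower, against 4.49% of all probes called lower and 3.07% higher. The called probes belong to *DCP1B*, *CNOT9* and *TSN*, the partner of TSNAX, whose called probe was at −0.82 (adjusted p = 0.0494). These calls were lost on the authors' log2 values, with no filter on dim probes and with the methods' t-test. There, 0 of all probes were called after *miR-486-5p*.

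Among the nuclear processing and export partners, 5 of 11 genes were below −0.5 after *miR-486-3p* and 2 above 0.5, beside 27.2% and 30.4% of all genes. *KHSRP*, which binds the terminal loop of several microRNA precursors, fell by 1.52 on the log2 scale as the mean of 2 probes (limma adjusted p of 0.00774 and 0.00891). *XPO5*, the exporter of the precursor hairpin, had a mean of −0.80 over 3 probes, of which limma called 2 (adjusted p from 0.00908 to 0.0576). *DDX17*, an RNA helicase that accompanies the Microprocessor, rose by 1.21 as the mean of 2 probes at 1.71 and 0.71 (limma adjusted p of 0.00774 and 0.0313). The median of this list was 0.078, and −0.30 under median scaling.

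Dicer partners and the factors that load Argonaute had a median of −0.44, with 4 of 10 genes below −0.5 and 2 above 0.5 (all genes: 27.2% and 30.4%). Under median scaling the median was −0.81, with 7 below and 1 above (all genes: 41.7% and 17.8%). *HSP90AB1*, a chaperone, had the largest fall of any list gene measured on all 4 arrays, at −1.97 over 2 probes (limma adjusted p of 0.00792 and 0.00811). The co-chaperone *FKBP4* was at −1.51 (adjusted p of 0.008 and 0.0091), *PTGES3* at −1.22 (adjusted p = 0.00935) and *HSPA8* at −1.03 (adjusted p = 0.0111). The direct partners of Dicer had smaller differences than these genes: *TARBP2* was at −0.44 (limma adjusted p = 0.0391) and *PRKRA* at −0.38 (adjusted p = 0.0558). The difference of the chaperone *HSP90AA1* was as small, at −0.43 over 3 probes (limma adjusted p from 0.0239 to 0.146). *TSNAX*, a subunit of the nuclease that clears the passenger strand in flies, rose by 1.12 (limma adjusted p of 0.00966 and 0.0173).

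Of the genes for the tailing and turnover of microRNAs, 2 of 9 were below −0.5 and 2 above 0.5 after *miR-486-3p*. Under median scaling the counts were 4 and 2. Over all genes the shares were 27.2% and 30.4%, and 41.7% and 17.8% under median scaling. *ERI1*, an exonuclease, fell by 1.42 (limma adjusted p = 0.00908) and *LIN28B*, a blocker of let-7 processing, by 1.09 (adjusted p = 0.0140). *ZSWIM8*, the ubiquitin ligase adaptor that marks Argonaute for target-directed microRNA decay, rose by 1.21 (limma adjusted p = 0.00953), and *ZC3H12A*, an RNase known to cut precursor loops, rose by 0.99 (adjusted p = 0.0124). In the deadenylation list, 2 of 14 genes were below −0.5 and 5 above 0.5 (all genes: 27.2% and 30.4%). Under median scaling the counts were 6 and 1 (all genes: 41.7% and 17.8%). *PABPC4*, a poly(A)-binding protein, fell by 1.70 (adjusted p of 0.00762 and 0.00941) and *CNOT3*, a subunit of CCR4-NOT, by 1.43 (adjusted p = 0.00854).

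In the decapping, decay and translational repression list, *miR-486-3p* left 9 of 17 genes above 0.5 and 2 below −0.5, with a median of 0.51, and limma called 17 of its 30 probes higher and 3 lower. The shares over all genes were 30.4% and 27.2%, and limma called 28.1% of all probes higher and 24.2% lower. The count depended on the processing: 3 genes were above 0.5 under median scaling (median 0.14; all genes above 0.5: 17.8%) and 3 after normexp correction (median 0.36; all genes: 15.2%). Under *miR-486-5p* its genes went both ways. *DCP1B*, a decapping cofactor, had log2 signals of 1.55 and 1.51 on the mock arrays, 0.081 with *miR-486-5p* and 2.24 with *miR-486-3p*. It was thus far below the mock arrays with one strand and above them with the other. It fell by 1.45 after *miR-486-5p* (limma adjusted p = 0.0475) and rose by 0.70 after *miR-486-3p* (adjusted p = 0.0188). The call after *miR-486-5p* was lost on the authors' log2 values, where the difference was −1.45. *DCP2*, the decapping enzyme itself, was at 0.82 after *miR-486-5p*, which did not pass (adjusted p = 0.0520), and the cofactor *DCP1A* at 0.60 over 3 probes (adjusted p from 0.0564 to 0.0689).

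Other list genes with the largest differences after *miR-486-5p* were *CNOT9* (−0.84, limma adjusted p = 0.0496), the splicing factor *SRSF3* (−0.73), *FKBP4* (−0.63) and *CNOT11* (−0.61). Of these limma called *CNOT9* alone, which was at −0.39 after normexp correction and lost its call on the authors' log2 values. On the other side, *LIN28B* was at 0.60, *TUT7* at 0.56 and *ZSWIM8* at 0.49, and none of these passed (adjusted p from 0.0657 to 0.0735). The PIWI clade, the germline branch of the Argonaute family, was mostly at background. *PIWIL1* and *PIWIL3* were not well above background on any array. *PIWIL4* was at −0.50 after *miR-486-5p* (adjusted p = 0.0806) and rose by 1.03 after *miR-486-3p* (adjusted p = 0.0133). These differences were −0.10 and 0.51 after normexp correction. For *PIWIL2*, 1 probe was well above background only after *miR-486-3p*, where it was at least 2.12-fold higher than on the mock arrays, and the other probe was at −0.17. That other probe was at −0.54 after *miR-486-5p*, and at 0.018 with normexp correction.

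**Figure D3:**
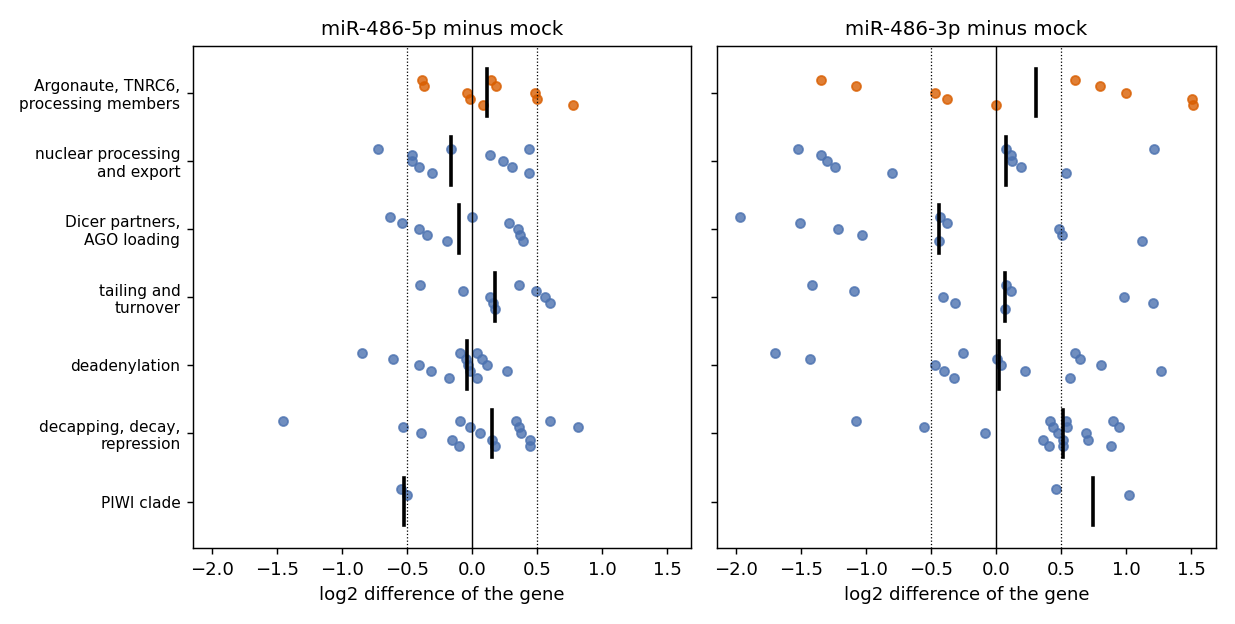
Log2 difference from the mock arrays of every gene in use, by list, for *miR-486-5p* (left) and *miR-486-3p* (right). Each point is a gene, black bars are list medians and dotted lines mark −0.5 and 0.5. The members spread from −1.35 to 1.51 after *miR-486-3p* and from −0.38 to 0.77 after *miR-486-5p*, and the list medians after *miR-486-3p* shift with the scaling, as that of the decapping list, drawn at 0.51, is 0.14 under median scaling.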

How the data were processed

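The members and gene lists were chosen with earlier results of these data known. RNA was hybridized to Agilent arrays annotated on hg19, and the authors deposited Feature Extraction 12.1.1.1 output with an intensity for each spot, already corrected for background, and a table of log2 values with identical quartiles on the 4 arrays, whose normalization is not given in the sources used here. Member differences from that table were close to those under quantile normalization, such as 0.725 and 0.727 for *AGO4* after *miR-486-5p*. The differences under these settings are therefore not separate checks. The intensities were used. On the log2 scale, the 75th percentile of each array, computed without control spots, was subtracted, outlier spots (50 to 72 per array) were removed and spots of a probe averaged. Of 33080 probes with a RefSeq accession, 31104 were named through a GRCh38.p14 table. A probe was used if it was well above background on the transfected array or on both mock arrays; a probe dim on every array of a group was raised to the lowest signal well above background, which gives a bound. For a gene, the differences of its probes in use were averaged. limma 3.58.1 in R 4.3.3 was fitted to 3 groups with 1 residual degree of freedom. It was tested on simulated data: of 200 probes among 33498 changed by 4 on the log2 scale after *miR-486-3p*, 89.5% were called, of 200 changed by 1.5, 0 were, and of 16000 changed by 1.5, 95% were. Beside the members, the text names list genes with the 5 largest falls and rises per strand measured well above background on each of the 4 arrays and on one side of both mock arrays, with *XPO5*, *TARBP2*, *PRKRA* and the PIWI clade. *PTGES3*, *HSPA8*, *HSP90AA1*, *TSN* and *ERI1* were named after their values were seen. All arrays came from 1 slide and 1 scan. The labels do not say whether the mock arrays are separate cultures, so p-values measure only the spread between these arrays, which may be technical.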

Additional observations from a re-analysis of the deposited data

How the results depend on the processing

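The values were recomputed without either mock array, with median scaling or quantile normalization, with normexp correction on the median signal, on the authors' log2 values, without the filter on dim probes or with one that asks for all 4 arrays, with the brightest probe (by the mean over the 4 arrays), at a limit of 1, with the methods' t-test and with an intensity trend in limma. *AGO1* after *miR-486-3p* was at −0.75 with median scaling and at 0.65 with its brightest probe. No member past 0.5 in the reported setting changed sign. No paired analysis was possible because neither strand has more than 1 array, so fewer than 2 replicate numbers are common to the groups. With 1 mock array left, no residual degree of freedom remains for limma, which then gives no value. Without one or the other mock array, 2 to 3 members were below −0.5 and 5 above 0.5 after *miR-486-3p*, and 0 and 2 after *miR-486-5p*, with medians of 0.2999 to 0.31 and 0.087 to 0.12. Over all genes, 27.1% to 27.2% were below −0.5 and 30.1% to 30.3% above 0.5 after *miR-486-3p*. After *miR-486-5p* these shares were 15.8% to 16.4% and 14.0%. Median scaling shifted the median of all genes by −0.37 after *miR-486-3p*, to 41.7% below −0.5 and 17.8% above 0.5. With it, 4 members were below −0.5 and 3 above 0.5 after *miR-486-3p*, with a median of −0.070. Under the same scaling, 1 member was above 0.5 after *miR-486-5p* (all genes: 10.9%), with a median of 0.042. With quantile normalization or the authors' values, 1 member was above 0.5 for the 5p strand (all genes: 12.6% under either setting). With normexp the count was 0, where the share of all genes was also lower, at 4.56%. At a limit of 1, 0 members were above it for the 5p strand and 2 for the 3p strand. The share of all genes at that limit is not given here. For the 3p strand the member median was 0.090 with normexp and 0.51 with the brightest probe (all genes: 0.095 and 0.042). After *miR-486-5p*, limma called 3 member probes lower and 4 higher with the intensity trend (all probes: 17.3% and 17.3%) or with normexp (15.2% and 17.3%), and 1 lower and 2 higher with the filter that asks for all 4 arrays (15.4% and 15.1%). For the pathway lists, alternatives were chosen after seeing the data. After *miR-486-3p*, 24 list genes were below −0.5 and 9 above 0.5 with median scaling, and 11 were above 0.5 with normexp (all genes: 15.2%). After *miR-486-5p*, normexp gave 5 list genes below and 2 above (all genes: 8.21% and 4.56%). The methods' t-test called 0 member probes after *miR-486-3p* in either direction after adjustment, and 0 of all probes. Of the alternative values of single members, 119 moved by less than the spread between the mock arrays and 61 by more. The 119 include values that could not move, so they are not a measure of stability. Every member probe was well above background on each array, so neither change of the filter could alter a member. The brightest probe could not alter the 7 members with 1 probe. None of the alternative values changed the sign of a member past 0.5 in the reported setting. Over all probes, the calls after *miR-486-5p* ran from 0 lower and 0 higher on the authors' values, with no filter or with the t-test to 5802 lower and 5806 higher with the trend.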

Other observations

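The neighbors of the *AGO4*, *AGO1* and *AGO3* cluster on chromosome 1 and the antisense partners of the members were read after the members' values were seen. On the *AGO4* side, *CLSPN*, which encodes the checkpoint mediator claspin, had log2 signals of 0.062 and −0.16 on the mock arrays, −0.94 with *miR-486-5p* and −2.09 with *miR-486-3p*. It thus fell by 2.04 after *miR-486-3p* (limma adjusted p = 0.00928), where *AGO4* rose by 1.51. Next to it, *C1orf216* rose by 0.58 (adjusted p = 0.0408), and beyond that *PSMB2*, a proteasome subunit, fell by 1.05 and 0.99 with its 2 probes (adjusted p = 0.0109 and 0.0117). On the *AGO3* side, *ADPRS*, an ADP-ribosylhydrolase, rose by 0.73 (adjusted p = 0.0175). So the called genes of this stretch went in both directions.

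*DICER1-AS1*, the antisense neighbor of *DICER1*, had log2 signals of 0.45 and 0.28 on the mock arrays, −0.91 with *miR-486-5p* and 1.11 with *miR-486-3p*. It was below both mock arrays with *miR-486-5p* (−1.28, limma adjusted p = 0.0478) and above both with *miR-486-3p* (0.75, adjusted p = 0.0281), while the sense gene differed by 0.18 and −0.47. Each value rests on 1 probe and 1 transfected array. The call of *DICER1-AS1* after *miR-486-5p* was lost on the authors' log2 values, where limma called 0 of all probes for that strand.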
